A study of Mus musculus with 15 samples.

Results

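The 34 genes described here belong to the unfolded protein response and the integrated stress response. They were chosen by name from knowledge of these pathways, with earlier results of these data known, out of the 51763 genes of the count table. They comprise 11 chaperones and cofactors of the endoplasmic reticulum (ER), 4 protein disulfide isomerases, 6 genes of ER-associated degradation, 3 stress sensors with the transcription factor gene *Xbp1*, and 9 genes of the ATF4/CHOP arm. All 34 passed the filter on low counts, which kept 16919 genes. RNA was sequenced from 15 samples of murine bone marrow-derived macrophages (BMDMs) of wild-type (WT) genotype, grown with M-CSF, 3 each for PBS, frHMGB1, dsHMGB1, LPS and LPS/IFNγ, all taken at 24 h. HMGB1 is a nuclear protein that signals when it is released from cells, and its fully reduced (frHMGB1) and disulfide (dsHMGB1) forms were both given at 5 µg/mL. By the methods of the study, frHMGB1 was made in buffers with the reducing agent DTT. The dsHMGB1 was a gift of another laboratory, made in buffers without DTT, and purified HMGB1 was stored in PBS with or without DTT. LPS, a bacterial cell wall component sensed through the receptor TLR4, was given at 1000 ng/mL, and PBS served as the unstimulated control. In LPS/IFNγ, the combination with interferon-γ at 20 ng/mL, the LPS dose is 100 ng/mL in the protocol text and 1000 ng/mL in the treatment field of the labels. By the methods of the study, the marrow came from female C57BL/6NTac mice of 8 to 10 weeks, and the cells of 5 mice were pooled before seeding. The samples of a condition are therefore technical replicates of 1 pool, and every p-value below covers the spread between cultures and libraries, not between animals. The cells were checked against macrophage markers, and all 10 on the list, among them *Csf1r*, *Cd68* and *Lyz2*, were detected in every library.

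As background, proteins that enter the ER are folded by chaperones and by isomerases that form disulfide bonds, and proteins that fail to fold are drawn back to the cytosol and degraded. Misfolded protein is sensed by IRE1, encoded by *Ern1*, by ATF6 and by PERK, encoded by *Eif2ak3*. IRE1 splices *Xbp1* mRNA and ATF6 is cut to an active factor, and both then raise chaperone and degradation genes, whereas PERK phosphorylates the translation factor eIF2α. Other kinases phosphorylate the same factor on amino acid shortage, viral RNA or lack of haem, and this shared route, the integrated stress response, lowers general translation while it raises the translation of ATF4. The ATF4 protein then turns on genes for amino acid supply, redox defence and stress control. Splicing of *Xbp1*, cleavage of ATF6 and translation of *Atf4* do not show in gene-level counts, so the values below are mRNA levels only.

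Promoter stretches are shown because the targets of the sensors and of ATF4 are known for different DNA elements. Promoter windows of RefSeq (GRCm38.p6), from 250 bases before to 50 bases after each gene start, were matched for 30 of the 34 genes, and *Atf6*, *Derl1*, *Hyou1* and *Manf* had none. Searched on both strands, the ER stress response element (ERSE: CCAAT and CCACG with 9 bases between) was found in 8 of the 30 genes, 26.7%, beside 37 of all 27025 genes, 0.137%. The 8 were *Calr*, *Canx*, *Creld2*, *Dnajc3*, *Hsp90b1*, *Hspa5*, *Pdia6* and *Syvn1*, and none belonged to the ATF4/CHOP arm. In the lines that follow, read 5′ to 3′ along the gene strand, capitals mark the ERSE with its spacer, whose first base lies 65, 162, 126 and 44 bases before the gene start. For *Calr* and *Creld2* the element is on the opposite strand, and for *Hspa5* and later *Nupr1* only 5 bases are shown on each side:
Hspa5 (chr2:34772020-34772048, plus strand): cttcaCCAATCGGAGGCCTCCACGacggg
Calr (chr8:84847051-84847117, minus strand): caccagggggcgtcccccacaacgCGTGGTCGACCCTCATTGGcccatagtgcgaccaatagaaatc
Creld2 (chr15:88819496-88819562, plus strand): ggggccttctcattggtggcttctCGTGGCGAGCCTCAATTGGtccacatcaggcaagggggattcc
Syvn1 (chr19:6046508-6046574, plus strand): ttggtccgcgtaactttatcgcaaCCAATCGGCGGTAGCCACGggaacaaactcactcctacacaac

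The related ERSE-II, ATTGG and CCACG with 1 base between, was found in *Dnajb11* and *Herpud1* only, beside 12 of all genes, 0.0444%. The C/EBP-ATF element in the form TTGCATCA occurred in *Atf3*, *Chac1*, *Herpud1* and *Nupr1*, 13.3% of the 30 genes beside 1.03% of all genes. *Nupr1* alone also held the form TGATGNAAT, on the opposite strand and at the same place as its TTGCATCA, so that both matches overlap, where 1.08% of all genes held that form. The cyclic AMP response element TGACGTCA was found in *Ppp1r15a*, beside 2.03% of all genes, and the core of the unfolded protein response element, TGACGTGG, which shares 6 bases with it, in none of the 30 genes beside 0.714% of all genes. A match is a description of letters in this window and no evidence of binding. As the genes were chosen as known members of these pathways, their shares beside all genes are no independent finding. Capitals mark ERSE-II in the upper line for *Herpud1* (52 bases before the start), TTGCATCA in the next 4 lines (112, 193, 110 and 110) and TGACGTCA in the last (12):
Herpud1 (chr8:94386353-94386411, plus strand): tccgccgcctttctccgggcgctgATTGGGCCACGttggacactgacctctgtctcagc
Herpud1 (chr8:94386293-94386348, plus strand): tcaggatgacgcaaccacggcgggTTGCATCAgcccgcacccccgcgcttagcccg
Chac1 (chr2:119351025-119351080, plus strand): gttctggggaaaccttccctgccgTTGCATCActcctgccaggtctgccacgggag
Atf3 (chr1:191183412-191183467, minus strand): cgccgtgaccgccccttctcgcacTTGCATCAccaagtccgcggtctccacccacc
Nupr1 (chr7:126625568-126625585, minus strand): ccagaTTGCATCAgacag
Ppp1r15a (chr7:45526269-45526304, minus strand): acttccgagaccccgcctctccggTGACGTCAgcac

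Libraries held 40934540 to 80925478 counted reads, and counts were scaled with DESeq2 size factors for the normalized counts printed here. PBS replicate 3 stood apart, with Pearson correlations of 0.938 and 0.933 to the other PBS libraries across genes, where all other replicate pairs lay between 0.987 and 0.993. Among the 34 genes, PBS replicate 3 was above both other PBS libraries for 18 and below both for 16. Its log2 ratio to their mean ran from -1.98 for *Ern1* to 1.91 for *Ddit3*, and it was lower for longer genes, with a Spearman correlation of -0.42 with exon length over the other 33 genes and -0.51 over 13025 protein-coding genes. Counts of calls over the 34 genes are therefore given with and without this library, and those of longer lists only with it. Scaling mattered as well: the median edgeR log2 fold change of all genes tested in LPS against PBS was -0.27 after TMM scaling and -0.89 with total counts alone. Markers of other cell types stayed low, with summed CPM, counts scaled to the library total, of 18.7 to 111 for plasma and B cell genes, 149 to 359 for fibroblast, 1.97 to 5.76 for neutrophil and at most 15.002 for dendritic cell genes. The plasma and B cell sum came mostly from *Prdm1* (9.27 to 76.0 CPM) and *Ighm* (5.42 to 51.3 CPM), while *Mzb1* had 0 reads. The T and NK cell list held 0.415 to 182 CPM, highest in LPS/IFNγ and nearly all from *Lck*, while *Cd3e*, *Cd3d* and *Cd3g* had 0 reads. The 10 macrophage markers together held 24622 to 28166 CPM in PBS, 29279 to 29528 in frHMGB1, 21098 to 22931 in dsHMGB1, 17817 to 18612 in LPS and 14801 to 15200.2 in LPS/IFNγ, a sum made mostly of *Lyz2*. Gene by gene, 4 of the 10 were called higher and 1 lower in dsHMGB1, 5 and 2 in LPS and 5 and 3 in LPS/IFNγ, with median log2 fold changes of 0.39, 0.60 and 0.44, and the part of these shifts in the results was not tested. In bulk RNA, fewer cells of a kind and less RNA per cell cannot be told apart.

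**Figure D1:**
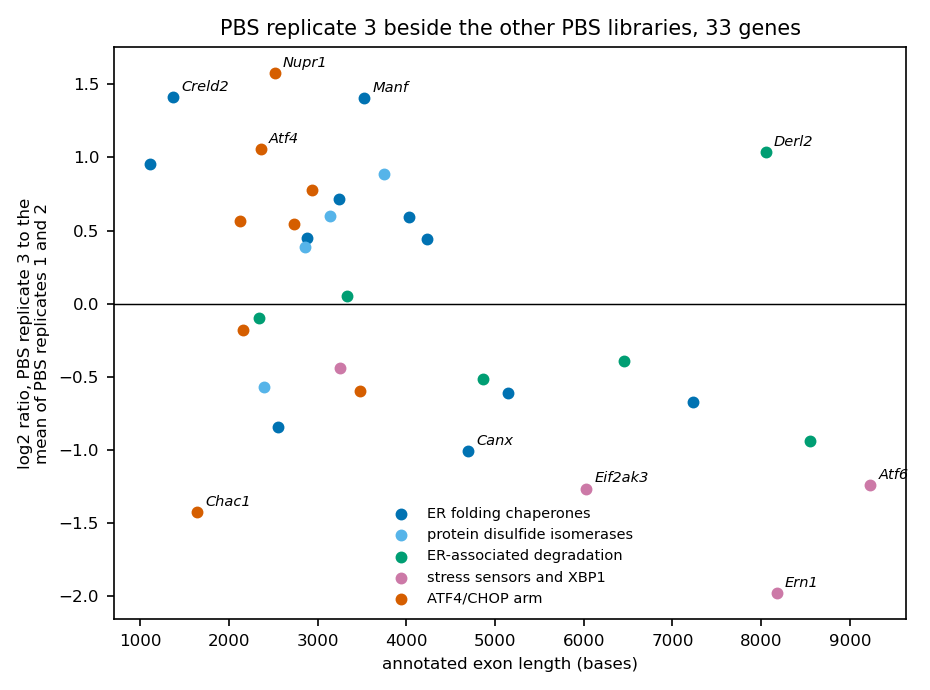
Each point is 1 of 33 genes (all but *Ddit3*), with its annotated exon length in bases on the horizontal axis and the log2 ratio of its normalized count in PBS replicate 3 to the mean of PBS replicates 1 and 2 on the vertical axis. *Creld2*, with 1366 exon bases, is at 1.41 and the lowest point is *Ern1*, with 8173, at -1.98, while *Derl2*, with 8049, is at 1.03 against the trend.

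Under dsHMGB1, LPS or LPS/IFNγ, whose 9 libraries are called the stimulated libraries below, the branches moved in different directions. The ATF4/CHOP arm rose, most of all *Chac1*, *Nupr1*, *Asns* and *Trib3*, most chaperones and isomerases fell moderately or did not pass the test, *Hspa5* and the degradation genes *Herpud1*, *Syvn1* and *Sel1l* rose, and of the sensors *Eif2ak3* fell. In dsHMGB1 against PBS, 11 of the 34 genes rose and 9 fell (edgeR quasi-likelihood F test on all 15 libraries, Benjamini-Hochberg adjusted p under 0.05), where 47.4% of all genes were called, 23.3% as higher and 24.2% as lower. For LPS against PBS the counts were 12 higher and 11 lower, with 62.9% of all genes called, 26.7% as higher and 36.2% as lower. For LPS/IFNγ against PBS they were 13 and 13, with 60.3% called, 29% higher and 31.2% lower. As shares of the 34 genes these calls were 58.8%, 67.6% and 76.5%, not far above the background, so the total count says little about these genes and the branches are described singly. The median log2 fold change (DESeq2, unshrunken) of the 34 genes was 0.03 under dsHMGB1, 0.13 under LPS and -0.06 under LPS/IFNγ, beside -0.10, -0.21 and -0.12 over all genes. Log2 fold changes above 2 were reached by 6 genes in dsHMGB1 and by 7 genes each in LPS and LPS/IFNγ, all in the ATF4/CHOP arm, and none fell below -2 with all libraries, whereas without PBS replicate 3 *Eif2ak3* was at -2.30 in LPS and -2.26 in LPS/IFNγ, and *Sesn2* was at 1.94 in dsHMGB1, in edgeR log2 fold change. Without PBS replicate 3 the counts of higher and lower genes were 15 and 13, 16 and 15, and 15 and 14, while 58.9%, 71.2% and 67.7% of all genes were called. These comparisons share the PBS libraries and are given side by side, not as independent results.

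**Figure D2:**
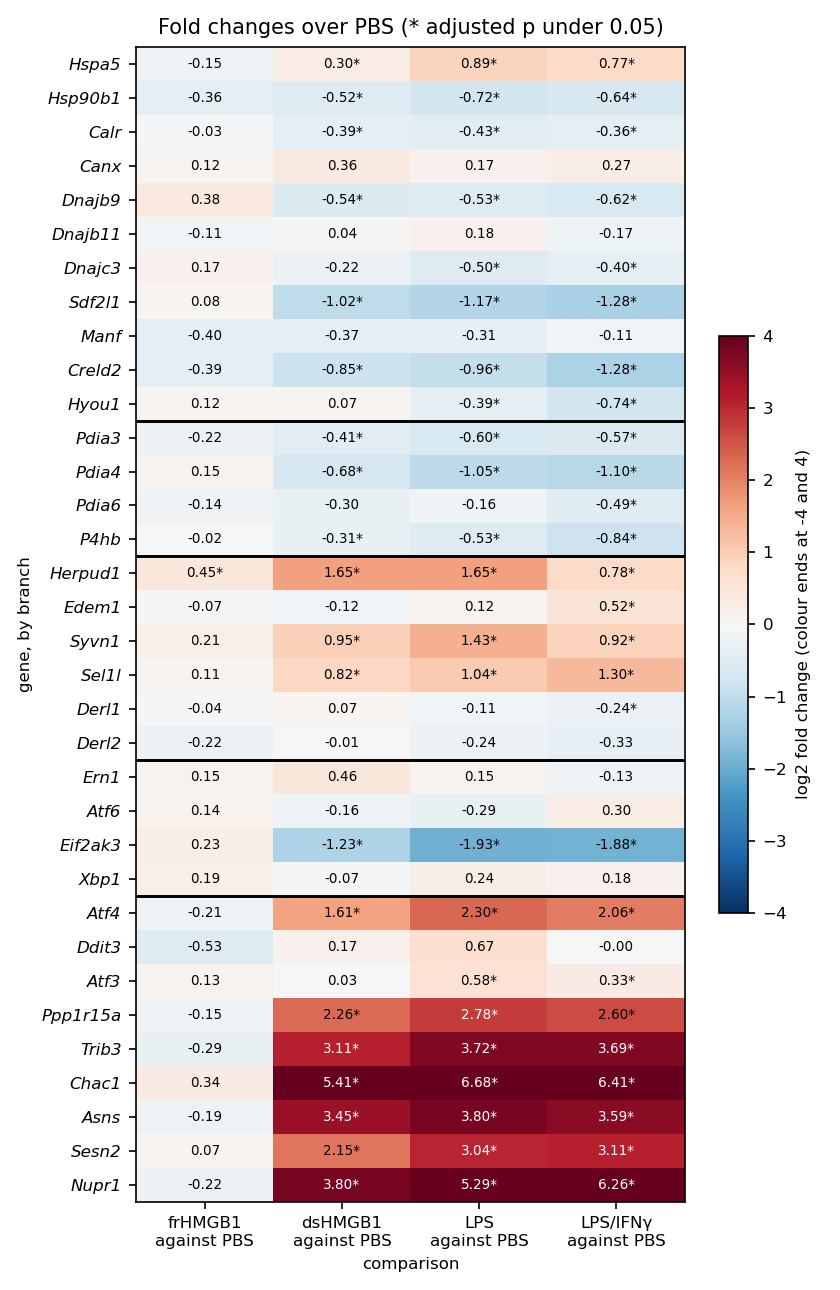
Rows are the 34 genes grouped by branch (chaperones, isomerases, degradation, sensors and *Xbp1*, ATF4/CHOP arm) and columns the 4 stimulations against PBS, with the DESeq2 log2 fold change printed and coloured from blue (lower) to red (higher). Asterisks mark an edgeR adjusted p under 0.05, and the dark red block at the bottom right is the ATF4/CHOP arm, which reaches 6.68 for *Chac1* in LPS.

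In the ATF4/CHOP arm, 7 of 9 genes rose in dsHMGB1 and 8 of 9 each in LPS and LPS/IFNγ, and none fell. The median log2 fold changes over PBS were 2.26, 3.04 and 3.11. *Atf4*, the transcription factor gene at the head of the arm, had normalized counts of 7585, 6807 and 14944 in PBS, 8197, 9118 and 8072 in frHMGB1, 34878, 25947 and 28396 in dsHMGB1, 47963, 47510.2 and 49319 in LPS and 40766, 40585 and 40685 in LPS/IFNγ. All 9 stimulated libraries lay above all PBS and frHMGB1 libraries, and the highest of those 6 was PBS replicate 3. The log2 fold change was 1.61 (SE 0.24, edgeR adjusted p = 3.09e-05) under dsHMGB1, 2.30 (SE 0.24, edgeR adjusted p = 8.7e-07) under LPS and 2.06 (SE 0.24, edgeR adjusted p = 2e-06) under LPS/IFNγ, the LPS value being a 4.94-fold rise. The edgeR log2 fold change of *Atf4* without PBS replicate 3 was 2.01 in dsHMGB1 and 2.69 in LPS.

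*Ddit3* encodes CHOP, a transcription factor tied to cell death under prolonged ER stress. Its row in the table is the entry ENSMUSG00000116429, which GENCODE M21 gives as 105 exon bases (GRCm38 chr10:127290829-127293753, plus strand). These lie within the exons of a longer *Ddit3* entry that has no row of its own. As the annotation used for counting was not given, it is not known whether the counts cover only this small stretch or more of the gene. The normalized counts were 1316, 1161 and 4660.2 in PBS, 1499, 1879 and 1559 in frHMGB1, 3133, 2249 and 2646 in dsHMGB1, 3811, 3836 and 3726 in LPS and 2279, 2426 and 2406 in LPS/IFNγ. PBS replicate 3 was the highest of all 15 libraries, so PBS overlapped every other condition, and no comparison of *Ddit3* was called, with 0.67 (SE 0.40, edgeR adjusted p = 0.143) in LPS. Without that library the edgeR log2 fold change was 1.08 under dsHMGB1, 1.56 under LPS and 0.87 under LPS/IFNγ, each called, with adjusted p of 2.73e-07, 1.49e-09 and 2.74e-06. The call on *Ddit3* thus rested on 1 library.

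*Atf3*, a stress-induced transcription factor gene, was high in every condition, with normalized counts of 43861, 43882 and 38676 in PBS, 45730.0, 45678 and 46604 in frHMGB1, 45072, 40303 and 43709.9 in dsHMGB1, 62673, 63691 and 62517 in LPS and 51758, 53317 and 54099.7 in LPS/IFNγ. The LPS and LPS/IFNγ libraries did not overlap the PBS libraries, while the dsHMGB1 libraries did. The log2 fold change was 0.58 (SE 0.07) in LPS and 0.33 (SE 0.07) in LPS/IFNγ, both called, and 0.03 in dsHMGB1. With total counts alone the edgeR values of *Atf3* turned to -0.34 under dsHMGB1, -0.13 under LPS and -0.36 under LPS/IFNγ, so its direction depended on scaling.

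The feedback genes of the arm rose with it. *Ppp1r15a* encodes GADD34, which brings a phosphatase to eIF2α and ends the translational block, and its normalized counts were 2137, 1952 and 3502 in PBS, 2231, 2391 and 2189.5 in frHMGB1, 12659, 11341 and 12284 in dsHMGB1, 17029, 17575 and 17623 in LPS and 15153, 15094 and 15712 in LPS/IFNγ. Each stimulated library exceeded each PBS and frHMGB1 library, and the rise was 2.26 (SE 0.18, edgeR adjusted p = 4.41e-08) under dsHMGB1 and 2.78 (SE 0.18) under LPS on the log2 scale, or 6.06-fold under LPS/IFNγ. *Trib3* encodes a pseudokinase that restrains ATF4 and CHOP, with normalized counts of 297, 272 and 422 in PBS, 239, 318 and 248 in frHMGB1, 3246, 2473 and 2757 in dsHMGB1, 4346, 4084 and 4508 in LPS and 4181, 4284 and 4219 in LPS/IFNγ. There was again no overlap, and the log2 fold change was 3.11 (SE 0.17), 3.72 (SE 0.17) and 3.69 (SE 0.17) under dsHMGB1, LPS and LPS/IFNγ. *Chac1*, whose enzyme breaks down glutathione, showed the largest rise of the 34 genes in dsHMGB1 and LPS. In LPS/IFNγ it led only with PBS replicate 3 included, and without that library *Nupr1* rose more (edgeR log2 fold change 6.92, against 6.05 for *Chac1*). Its normalized counts were 45.9, 58.0 and 18.7 in PBS, 63.1, 60.3 and 38.8 in frHMGB1, 1909, 1751 and 1782 in dsHMGB1, 4116, 4437 and 4617 in LPS and 3676, 3636 and 3566 in LPS/IFNγ. The highest PBS or frHMGB1 library was at 63.1 and the lowest stimulated one at 1751, and the rise was 42.5-fold under dsHMGB1, 103-fold under LPS and 84.9-fold under LPS/IFNγ, or 6.68 (SE 0.23, edgeR adjusted p = 7.2e-10) on the log2 scale in LPS.

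Genes for metabolism and stress adaptation completed the arm. *Asns*, asparagine synthetase, had normalized counts of 747, 771 and 1106 in PBS, 769, 863 and 656 in frHMGB1, 10343, 8707 and 9495 in dsHMGB1, 12088, 11879.8 and 12553 in LPS and 10428, 10683 and 10468 in LPS/IFNγ, and no stimulated library overlapped a PBS or frHMGB1 library. The rise was 10.9-fold in dsHMGB1 and 14-fold in LPS, or 3.45 (SE 0.15, edgeR adjusted p = 2.9e-10) and 3.80 (SE 0.15, edgeR adjusted p = 7.66e-11) on the log2 scale. *Sesn2* encodes a stress-induced inhibitor of mTORC1 signalling, and its normalized counts were 1264, 1237 and 828 in PBS, 1180.2, 1246 and 1078 in frHMGB1, 4931, 4638 and 5193 in dsHMGB1, 8434, 9478 and 9458 in LPS and 8959, 9836 and 9967 in LPS/IFNγ. dsHMGB1 stood between the PBS and frHMGB1 libraries and the LPS libraries without overlap, while LPS and LPS/IFNγ overlapped each other, and the log2 fold change was 2.15 (SE 0.15), 3.04 (SE 0.15) and 3.11 (SE 0.15). *Nupr1*, a small stress-induced chromatin protein gene, had normalized counts of 224, 245 and 701 in PBS, 338, 331 and 329 in frHMGB1, 6231, 4667 and 5262 in dsHMGB1, 15466, 15491 and 14659.9 in LPS and 29519, 29420.0 and 30538 in LPS/IFNγ. The stimulated conditions were fully separated from PBS, frHMGB1 and each other, in the rising order dsHMGB1, LPS, LPS/IFNγ, with 13.9-, 39.2- and 76.9-fold rises over PBS. PBS replicate 3 was the highest of the PBS and frHMGB1 libraries for *Nupr1*, and without it the edgeR log2 fold change was 4.49 in dsHMGB1 and 5.96 in LPS.

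**Figure D3:**
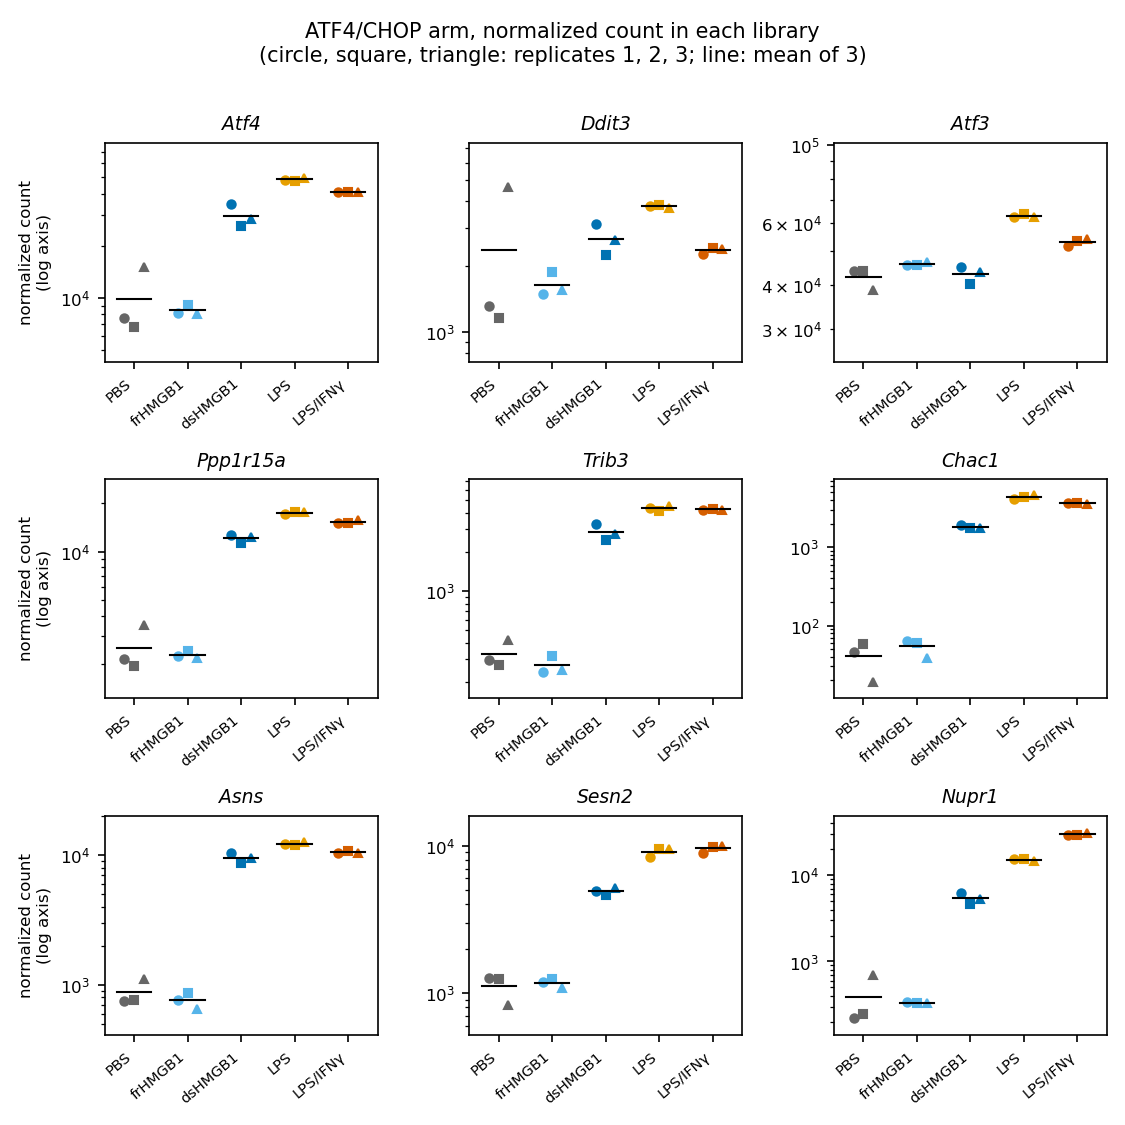
Each panel shows the normalized count of 1 gene of the ATF4/CHOP arm on a log axis for the 5 conditions, with circle, square and triangle for replicates 1, 2 and 3 and a line for the mean of 3. In 7 panels the dsHMGB1, LPS and LPS/IFNγ points lie above all PBS and frHMGB1 points, whereas in the *Ddit3* panel the PBS triangle is above every other point and in the *Atf3* panel dsHMGB1 overlaps PBS. The share of all genes separated in this way is not given here, so the number of panels is a description only.

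Among the 11 ER chaperones and cofactors, *Hspa5* alone rose, and 5, 7 and 7 genes fell in dsHMGB1, LPS and LPS/IFNγ, with median log2 fold changes of -0.37, -0.43 and -0.40. *Hspa5* encodes BiP, a major ER chaperone and a classic readout of the unfolded protein response, and its normalized counts were 31945, 33757 and 44675 in PBS, 34879.6, 32823 and 31530.0 in frHMGB1, 46289, 42882 and 47124 in dsHMGB1, 66462, 68297 and 69360.3 in LPS and 62841, 62243 and 63554 in LPS/IFNγ. The LPS and LPS/IFNγ libraries were all above the PBS libraries, whereas the dsHMGB1 libraries overlapped them through PBS replicate 3. The log2 fold change was 0.30 (SE 0.12, edgeR adjusted p = 0.0194) under dsHMGB1, 0.89 (SE 0.12, edgeR adjusted p = 5.76e-06) under LPS and 0.77 (SE 0.12, edgeR adjusted p = 1.36e-05) under LPS/IFNγ, a 1.85-fold rise in LPS. The dsHMGB1 call was lost when PBS replicate 1 (adjusted p = 0.0717), PBS replicate 2 (0.0525) or dsHMGB1 replicate 3 (0.0598) was left out, and with total counts alone the edgeR value was -0.03 under dsHMGB1 and, no longer called, 0.11 under LPS/IFNγ.

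*Sdf2l1* and *Creld2*, both classic targets of ER stress, had the largest falls among the chaperone genes with all libraries, and both falls were smaller without PBS replicate 3. *Sdf2l1*, a cofactor of BiP, had normalized counts of 2444, 2461 and 4753 in PBS, 3566, 3404 and 3209.8 in frHMGB1, 1837, 1467 and 1469 in dsHMGB1, 1445, 1469 and 1369 in LPS and 1304, 1279 and 1383 in LPS/IFNγ. All 9 stimulated libraries lay below all PBS and frHMGB1 libraries, and the log2 fold change was -1.02 (SE 0.22, edgeR adjusted p = 0.000672) under dsHMGB1, -1.17 (SE 0.23) under LPS and -1.28 (SE 0.22) under LPS/IFNγ. The edgeR values of *Sdf2l1* without PBS replicate 3 were -0.66, -0.84 and -0.96, beside -0.80, -0.82 and -0.92 for *Dnajb9*. *Creld2*, which encodes a resident ER protein, had normalized counts of 1470.2, 1346 and 3752 in PBS, 1697, 1695 and 1621 in frHMGB1, 1333, 1123 and 1194 in dsHMGB1, 1148, 1166 and 1059 in LPS and 851, 954 and 901 in LPS/IFNγ. The stimulated libraries were again below all PBS and frHMGB1 libraries, but PBS replicate 3 was far above the other PBS libraries and enlarged the difference, so that the edgeR log2 fold change without it was -0.25 in dsHMGB1 and -0.38 in LPS, still called, beside the values with it of -0.85 and -0.96 from DESeq2. In dsHMGB1 the *Creld2* call was lost without dsHMGB1 replicate 2 (adjusted p = 0.0721) or replicate 3 (0.0613).

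Of the other chaperone genes, *Hsp90b1* (GRP94), the lectin chaperone gene *Calr* and the BiP cofactor gene *Dnajb9* fell in dsHMGB1, LPS and LPS/IFNγ, with log2 fold changes of -0.72, -0.43 and -0.53 in LPS. *Dnajc3*, which encodes an ER cochaperone that also inhibits PERK, and *Hyou1*, a nucleotide exchange factor gene for BiP, fell in LPS (-0.50 and -0.39) and in LPS/IFNγ (-0.40 and -0.74). *Canx*, *Dnajb11* and *Manf* were not called in these comparisons, with values of 0.17, 0.18 and -0.31 in LPS. The call of *Dnajb9* in dsHMGB1 and that of *Hyou1* in LPS were each lost without PBS replicate 1, PBS replicate 2 or any replicate of the stimulus, with adjusted p of 0.0570 to 0.118 for *Dnajb9* and 0.0627 to 0.105 for *Hyou1*. In LPS the call of *Dnajb9* was lost without PBS replicate 1 or 2 or LPS replicate 2 or 3 (0.0629 to 0.0700), and in LPS/IFNγ that of *Dnajc3* without PBS replicate 1 or 2 or LPS/IFNγ replicate 1 or 3 (0.0608 to 0.127). Without PBS replicate 3, *Manf* was called higher in dsHMGB1, LPS and LPS/IFNγ, at edgeR log2 fold changes of 0.23, 0.26 and 0.45, and the chaperone counts became 3 higher and 6 lower in dsHMGB1, 3 and 8 in LPS and 2 and 7 in LPS/IFNγ. *Hsp90b1* shares 10.3% of its exon bases with the antisense pseudogene 1810014B01Rik, and the strand setting of the counting is not given in the sources used here.

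The 4 protein disulfide isomerase genes, which encode enzymes that form and shuffle disulfide bonds, fell or were not called. The number lower was 3 under dsHMGB1, 3 under LPS and 4 under LPS/IFNγ, with median log2 fold changes of -0.36, -0.57 and -0.70, and none rose with all libraries in the fit. *Pdia4* (ERp72) had normalized counts of 3389, 3493 and 2315 in PBS, 3582, 3473 and 3174 in frHMGB1, 1915, 1862 and 1956 in dsHMGB1, 1490.5, 1584 and 1362 in LPS and 1392, 1446 and 1449.5 in LPS/IFNγ. The stimulated libraries were all below the PBS libraries, and the log2 fold change was -0.68 (SE 0.14, edgeR adjusted p = 0.00169), -1.05 (SE 0.14) and -1.10 (SE 0.14) in dsHMGB1, LPS and LPS/IFNγ. *P4hb* (PDI itself) had normalized counts of 23989.8, 24144 and 31525 in PBS, 26953, 25786 and 25831 in frHMGB1, 21969, 20473 and 22018 in dsHMGB1, 17931, 18082 and 19295 in LPS and 14902, 14416 and 15243 in LPS/IFNγ. All conditions below PBS were separated from it and from each other, in the order dsHMGB1, LPS, LPS/IFNγ downwards, with log2 fold changes of -0.31 (SE 0.10), -0.53 (SE 0.10) and -0.84 (SE 0.10). *Pdia3*, the partner of calnexin and calreticulin, fell by 0.41, 0.60 and 0.57 on the log2 scale, and *Pdia6* was called only in LPS/IFNγ (-0.49). *Pdia6* was called higher in LPS without PBS replicate 3 (edgeR log2 fold change 0.15, adjusted p = 0.0315). When only the 2 conditions were fitted, the dsHMGB1 calls of *Pdia3* (adjusted p = 0.148), *Pdia4* (0.0513) and *P4hb* (0.167) were lost, as were those of *Pdia3* in LPS (0.0623) and of *Pdia3* (0.0662) and *Pdia6* (0.207) in LPS/IFNγ.

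Of the 6 genes of ER-associated degradation, 3 rose under dsHMGB1, 3 under LPS and 4 under LPS/IFNγ, where 1 fell, and the median log2 fold changes were 0.45, 0.58 and 0.65. *Herpud1* encodes a membrane protein that organizes the degradation complex, and its normalized counts were 2102, 1976 and 1905 in PBS, 2799, 2618 and 2749 in frHMGB1, 6577, 6014 and 6164 in dsHMGB1, 6129, 6174 and 6515 in LPS and 3400.1, 3304 and 3573 in LPS/IFNγ. No condition above PBS overlapped PBS, dsHMGB1 and LPS overlapped each other, and LPS/IFNγ lay between them and frHMGB1. The log2 fold change was 1.65 (SE 0.07, edgeR adjusted p = 3.48e-09) under dsHMGB1, 1.65 (SE 0.07, edgeR adjusted p = 2.7e-09) under LPS and 0.78 (SE 0.07, edgeR adjusted p = 4.35e-06) under LPS/IFNγ, and with total counts alone the LPS/IFNγ call was lost (adjusted p = 0.485). *Syvn1* encodes HRD1, the ubiquitin ligase of the complex, with normalized counts of 4533, 4185 and 3056 in PBS, 4618, 4488 and 4493 in frHMGB1, 7509.8, 7656 and 7562 in dsHMGB1, 9939.6, 10394 and 11489.7 in LPS and 7377, 7456 and 7523 in LPS/IFNγ. All stimulated libraries exceeded all PBS libraries, with log2 fold changes of 0.95 (SE 0.13), 1.43 (SE 0.13) and 0.92 (SE 0.13), the last not called with total counts alone (adjusted p = 0.266). *Sel1l*, the adaptor gene of HRD1, had log2 fold changes of 0.82, 1.04 and 1.30, all called, although with total counts alone the adjusted p was 0.154 in dsHMGB1 and 0.276 in LPS. *Edem1*, which encodes a lectin that extracts glycoproteins for degradation, was called higher in LPS/IFNγ (0.52), and with total counts alone its edgeR value there turned to -0.18. Of the derlin genes, *Derl1* fell in LPS/IFNγ (-0.24), and *Derl2* was not called. The *Derl1* call was lost without a filter on low counts (adjusted p = 0.200) and with only the 2 conditions fitted (0.175), while without PBS replicate 3 *Derl1* was also called lower in LPS (-0.15, adjusted p = 0.0243) and *Derl2* higher in dsHMGB1 (edgeR log2 fold change 0.38, adjusted p = 0.000538).

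Of the sensors and *Xbp1*, *Eif2ak3* alone was called with all 15 libraries, while *Ern1*, *Atf6* and *Xbp1* each gained at least 1 call as lower once PBS replicate 3 was left out. The *Eif2ak3* normalized counts, for the gene of PERK, were 1711, 1658 and 701 in PBS, 1632, 1476 and 1664 in frHMGB1, 539, 607 and 595 in dsHMGB1, 341, 349.7 and 378 in LPS and 379.7, 341 and 386 in LPS/IFNγ. All 9 stimulated libraries were below every PBS and frHMGB1 library, including the low PBS replicate 3, and the log2 fold change was -1.23 (SE 0.26, edgeR adjusted p = 0.00134) under dsHMGB1, -1.93 (SE 0.26, edgeR adjusted p = 2.08e-05) under LPS and -1.88 (SE 0.26, edgeR adjusted p = 2.74e-05) under LPS/IFNγ, a 3.81-fold fall in LPS. *Eif2ak3* shares 8.05% of its exon bases with the gene model Gm43292 on the opposite strand. *Ern1* (IRE1) had normalized counts of 3524, 3708 and 917 in PBS, 3118, 2994 and 2961 in frHMGB1, 3040.1, 4161 and 3998 in dsHMGB1, 2936, 3052 and 3058 in LPS and 2318, 2706 and 2415 in LPS/IFNγ. PBS replicate 3 was far below every other library, so the PBS range spanned all other libraries but dsHMGB1 replicates 2 and 3, and no comparison was called, while without it *Ern1* was called lower in LPS (edgeR log2 fold change -0.32) and LPS/IFNγ (-0.62). *Xbp1*, whose spliced mRNA encodes the factor downstream of IRE1, had normalized counts of 7161, 6938 and 5189.7 in PBS, 7696, 7184 and 7148 in frHMGB1, 6445, 5931 and 6021 in dsHMGB1, 7439, 7867 and 7519.6 in LPS and 7151, 7085 and 7607 in LPS/IFNγ. The 9 stimulated libraries lay between 5931 and 7867, and although the LPS libraries were above the PBS libraries, *Xbp1* was not called in any comparison. With total counts alone *Xbp1* was called lower, at edgeR log2 fold changes of -0.45, -0.47 and -0.53 under dsHMGB1, LPS and LPS/IFNγ. It was called lower under dsHMGB1 when PBS replicate 3 was left out (-0.24, adjusted p = 0.00208). *Atf6* was not called either, with values of -0.16, -0.29 and 0.30, but without PBS replicate 3, which was low for this gene too, it was called lower under dsHMGB1 (edgeR log2 fold change -0.51, adjusted p = 0.000241) and LPS (-0.65, adjusted p = 1.17e-05).

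**Figure D4:**
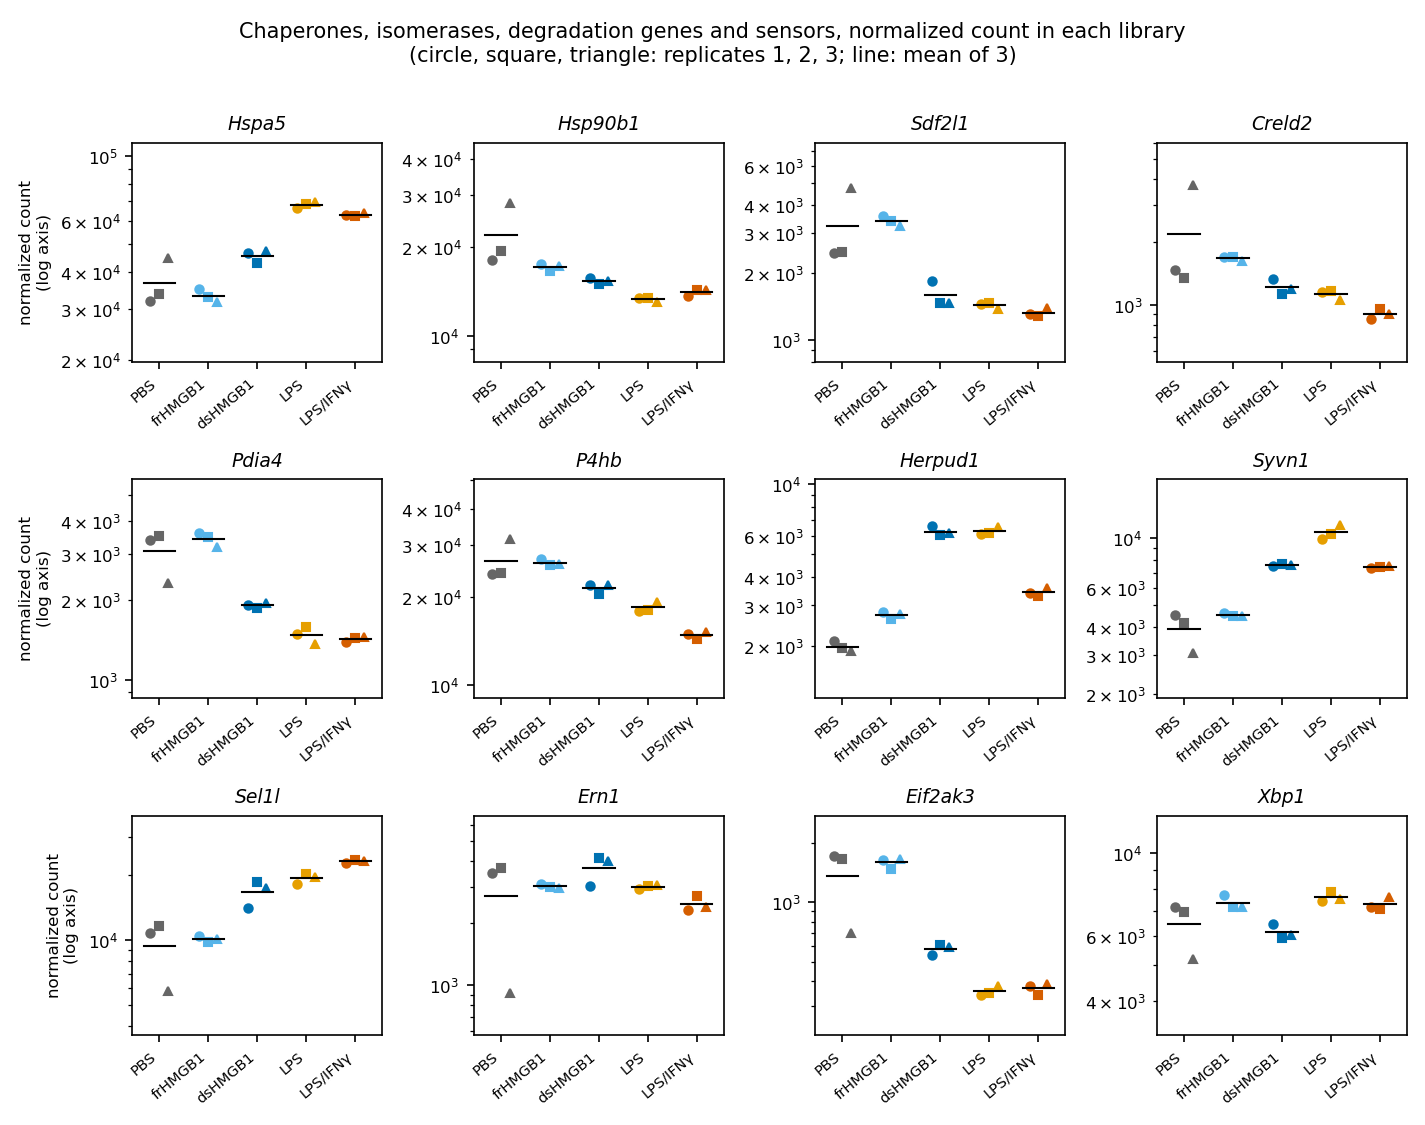
Each panel shows the normalized count of 1 gene on a log axis for the 5 conditions, with circle, square and triangle for replicates 1, 2 and 3 and a line for the mean of 3. *Hspa5*, *Herpud1*, *Syvn1* and *Sel1l* are higher in LPS than in PBS, *Hsp90b1*, *Sdf2l1*, *Creld2*, *Pdia4*, *P4hb* and *Eif2ak3* are lower, and for *Ern1* the PBS triangle at 917 is the lowest point.

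Per kilobase of exon, the order of mean normalized counts changed with stimulation. In PBS, *Atf3* was highest of the 33 genes with a usable length (19563 per kb), followed by *Calr* (13090.3), *P4hb* (9281) and *Hspa5* (8700.0). In LPS the order was *Atf3* (29229.5), *Atf4* (20468), *Hspa5* (16089) and *Calr* (9716), and in LPS/IFNγ *Nupr1* (11864) stood above *Calr* (10204). The lowest level in PBS was that of *Chac1* (24.98 per kb), and the lowest in LPS and LPS/IFNγ that of *Eif2ak3* (59.1 and 61.2). By the mean of the log2 normalized counts, 12 of the 34 genes were highest in LPS, 6 each in PBS, frHMGB1 and LPS/IFNγ, and 4 in dsHMGB1. By the mean normalized count itself, *Manf* (3449) and *Derl2* (3471) were instead highest in PBS. In the ATF4/CHOP arm 7 of 9 peaked in LPS and the other 2, *Sesn2* and *Nupr1*, in LPS/IFNγ.

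frHMGB1 differed little from PBS in these genes. Against PBS, 1 of the 34 genes was called higher and none lower, by edgeR, with 2 at an unadjusted p under 0.05, and DESeq2 also called 1 and 0, where 7% of all genes were called, 1.31% as higher and 5.69% as lower. The gene was *Herpud1*, at 0.45 (SE 0.07, edgeR adjusted p = 0.00383), with 2799, 2618 and 2749 in frHMGB1 above 2102, 1976 and 1905 in PBS. The *Herpud1* call was lost without a filter on low counts (adjusted p = 0.0594) and when only these 2 conditions were fitted (0.215). Without PBS replicate 3, 5 genes were called higher, namely *Herpud1*, *Sdf2l1*, *Pdia6*, *Ddit3* and *Nupr1*, and *Edem1* lower, while 17.5% of all genes were called. The 3 frHMGB1 libraries of *Chac1* (63.1, 60.3 and 38.8) and *Trib3* (239, 318 and 248) overlapped the PBS libraries of those genes. Against frHMGB1 at the same dose, 11 of the 34 genes were higher in dsHMGB1 and 7 lower, where 50.8% of all genes were called, 27.7% as higher and 23.1% as lower. The preparations differed in DTT and in source as well as in redox form, and PBS is not described as holding DTT. Whether DTT affected these genes was not tested. In the ATF4/CHOP arm 7 of 9 rose, with a median log2 fold change of 2.41, led by *Chac1* at 5.07 (SE 0.23), *Nupr1* at 4.02 (SE 0.33) and *Asns* at 3.64 (SE 0.15), and *Ddit3* (0.70) and *Atf3* (-0.10) were not called. *Herpud1*, *Syvn1*, *Sel1l* and *Hspa5* were the other 4 that were higher, and *Eif2ak3* (-1.45), *Sdf2l1* (-1.09), *Dnajb9* (-0.91) and *Pdia4* (-0.84) were lowest against frHMGB1, before *Dnajc3*, *Calr* and *P4hb*. The *Dnajc3* call was lost without any frHMGB1 library and without several others, and that of *Sel1l* without dsHMGB1 replicate 2 (adjusted p = 0.0576). This comparison uses no PBS library in its fold changes, yet without PBS replicate 3, which enters the shared estimate of spread, 14 genes were lower, with 68.7% of all genes called.

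Between dsHMGB1 at 5 µg/mL and LPS at 1000 ng/mL, which differ in dose as well as in substance, 7 of 13 calls lay in the ATF4/CHOP arm. Against LPS, 7 of the 9 genes of the arm were lower in dsHMGB1, with a median log2 fold change of -0.61, and over the 34 genes 4 were higher and 9 lower, where 26.4% of all genes were called, 15.8% as higher and 10.6% as lower. The largest differences were in *Nupr1*, at -1.50 (SE 0.33, edgeR adjusted p = 0.00267), *Chac1*, at -1.27 (SE 0.20, edgeR adjusted p = 0.00242), and *Sesn2*, at -0.89 (SE 0.15, edgeR adjusted p = 0.00124), while *Asns* (-0.36) and *Ddit3* (-0.50) were not called. *Hspa5* (-0.58) and *Syvn1* (-0.49) were lower as well, and *Hyou1* (0.47), *P4hb* (0.22), *Derl1* (0.18) and *Eif2ak3* (0.70) higher. These 4 higher calls did not hold: they numbered 0 without dsHMGB1 replicate 1 or without any of the LPS or LPS/IFNγ libraries, 1 without dsHMGB1 replicate 2 or 3, 0 without a filter on low counts, 2 with RLE scaling and 11 without PBS replicate 3. Of the 9 lower calls, *Atf4*, *Ppp1r15a* and *Syvn1* were each lost without dsHMGB1 replicate 2 or 3 and without some LPS libraries, and *Trib3* without dsHMGB1 replicate 2. The 9 became 5 without dsHMGB1 replicate 2 and 13 without PBS replicate 3, where 20.4% and 48.8% of all genes were called. With total counts alone the split was 12 higher and 4 lower, with 32.8% of all genes called, and *Atf4*, *Atf3*, *Ppp1r15a* and *Trib3* lost their calls, which left 3 of the 9 genes of the arm. In the fit with the replicate number as a block, *Derl1* and *Eif2ak3* were not called and *Pdia4* was.

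Against LPS/IFNγ, 5 of the 34 genes were higher in dsHMGB1 and 7 lower, where 33.2% of all genes were called, 16.5% as higher and 16.7% as lower. *Herpud1*, at 0.87 (SE 0.06, edgeR adjusted p = 3.24e-06), and *Hyou1*, at 0.81 (SE 0.16, edgeR adjusted p = 0.00141), were the most raised, followed by *P4hb*, *Pdia4* and *Derl1*. *Nupr1*, at -2.47 (SE 0.33, edgeR adjusted p = 3.38e-05), was lowered most, before *Chac1*, *Sesn2* (-0.96), *Edem1* (-0.64), *Trib3*, *Hspa5* and *Atf3*. The calls of *Pdia4* and *Atf3* were lost without dsHMGB1 replicate 2 or 3 or any LPS/IFNγ library, among others. Without PBS replicate 3 the counts were 15 and 13, with 53.3% of all genes called, and with total counts alone 14 and 2, with 38.2% called. Between LPS/IFNγ and LPS, whose LPS doses may differ as the labels disagree, 2 genes were higher in LPS/IFNγ and 3 lower, where 25.7% of all genes were called, 16.3% as higher and 9.36% as lower. *Nupr1* was higher by 0.97 (SE 0.33, edgeR adjusted p = 0.0218) and *Edem1* by 0.41 (SE 0.11), and *Herpud1*, at -0.87 (SE 0.07, edgeR adjusted p = 9.85e-06), *Syvn1*, at -0.51 (SE 0.13), and *P4hb*, at -0.31 (SE 0.11), were lower. Both higher calls were lost when any library of LPS or LPS/IFNγ was left out, the lower calls numbered 1 without LPS replicate 3, when *P4hb* (adjusted p = 0.0603) and *Syvn1* (0.0531) were lost, and without PBS replicate 3 there were 4 higher and 16 lower, the latter including 6 of the ATF4/CHOP arm, with 49.4% of all genes called. The *Herpud1* libraries did not overlap, with 6129, 6174 and 6515 in LPS and 3400.1, 3304 and 3573 in LPS/IFNγ.

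Beyond the 34 genes, longer lists of the same pathways were tested, and of each the 2 largest rises and falls in LPS among called genes with a mean normalized count of at least 100 are named. All counts and medians of these lists come from the fit of all 15 libraries, and their dependence on PBS replicate 3 is not shown here. Of 19 other ATF4 targets for amino acid supply, 14 rose and none fell in dsHMGB1, 14 rose and 1 fell in LPS, and 15 rose and 1 fell in LPS/IFNγ, with medians of 1.77, 2.03 and 1.81 beside the medians over all genes given above. The transporter genes *Slc7a5* and *Slc7a11*, which carry large neutral amino acids and cystine, led the list with 4.70 (SE 0.21) and 4.39 (SE 0.17) in LPS, and the glutamine transporter gene *Slc1a5* fell there by 0.31 on the log2 scale. Of 20 cytosolic aminoacyl-tRNA synthetase genes, which charge tRNAs with amino acids, 15 rose under dsHMGB1, 15 under LPS and 13 under LPS/IFNγ and 2 fell under each, with medians of 1.05, 1.16 and 1.09. In LPS, *Wars* (3.83) and *Aars* (2.62) rose most, and *Farsb* (-0.88) and *Dars* (-0.50) fell. *Wars* is also known as an interferon-induced gene. Of 15 other ATF4-linked genes, mostly for transcription factors and stress effectors, 8 rose and 3 fell in dsHMGB1, 9 and 3 in LPS, and 7 and 4 in LPS/IFNγ. The synthetase gene *Nars* is on this list as well as on that of the synthetases. *Jdp2* (4.77) and the cytokine gene *Gdf15* (4.13) rose most in LPS, while *Sesn1* (-5.38), a p53-linked relative of *Sesn2*, and *Gadd45a* (-2.85) fell most. In dsHMGB1, LPS and LPS/IFNγ, the shares called were 73.7%, 78.9% and 84.2% for amino acid supply and 85%, 85% and 75% for the synthetases. They were 73.3%, 80% and 73.3% for the factor and effector genes, beside 47.4%, 62.9% and 60.3% of all genes.

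Lists of ER folding, degradation, translocation, stress sensing and cytosolic heat shock genes were examined in the same way. Of all genes, 47.4%, 62.9% and 60.3% were called in dsHMGB1, LPS and LPS/IFNγ. In that order, the shares called were 35%, 65% and 75% for folding and 38.9%, 61.1% and 50% for degradation. They were 20%, 35% and 60% for translocation, 57.9%, 57.9% and 68.4% for sensing and 61.1%, 77.8% and 77.8% for heat shock. The degradation and translocation shares lay below those of all genes, but only just for degradation in LPS and translocation in LPS/IFNγ. The folding share in dsHMGB1 and the sensing share in LPS were below as well. Of 20 other ER folding and redox genes, 1 rose and 6 fell in dsHMGB1, 3 and 10 in LPS, and 2 and 13 in LPS/IFNγ, with medians of -0.55, -0.38 and -0.67, among them *Erp29* at -2.98 (SE 0.31) and *Fkbp2* at -1.38 (SE 0.51) as falls and *Ppib* (0.50) and *Dnajb12* (0.40) as rises in LPS. The oxidase genes *Ero1l* and *Ero1lb* were not matched to a row. Of 18 other degradation genes, 6 rose and 1 fell in dsHMGB1, 7 and 4 in LPS, and 5 and 4 in LPS/IFNγ, with *Rnf139* (2.61) and *Ube2j1* (0.87) the largest rises and *Edem2* (-0.88) and *Rnf5* (-0.33) the largest falls in LPS. Of 20 translocon and signal peptidase genes, 2 rose and 2 fell in dsHMGB1, 3 and 4 in LPS, and 4 and 8 in LPS/IFNγ, from *Srp54a* (2.72) and *Ssr3* (1.21) to *Sec11c* (-1.04) and *Spcs3* (-1.15) in LPS. Of 19 other sensor, eIF2α kinase and phosphatase genes, 7 rose and 4 fell in dsHMGB1, 6 and 5 in LPS, and 7 and 6 in LPS/IFNγ. *Eif2ak2*, which encodes PKR, the eIF2α kinase that binds double-stranded RNA and is induced by interferon, rose by 3.69 (SE 0.13, edgeR adjusted p = 2.05e-10) under dsHMGB1, 4.16 (SE 0.13) under LPS and 4.52 (SE 0.13) under LPS/IFNγ, opposite to the PERK gene, and *Creb3l1* (2.81) rose while *Creb3l2* (-1.36) and the eIF2B subunit gene *Eif2b4* (-1.26) fell in LPS. Of 18 cytosolic heat shock genes, 8 rose and 3 fell in dsHMGB1, and 11 rose and 3 fell in LPS and in LPS/IFNγ, with *Hspa4l* (2.26) and *Stip1* (1.94) the largest rises and *Hsph1* (-1.55) and *Bag3* (-1.07) the largest falls in LPS.

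**Figure D5:**
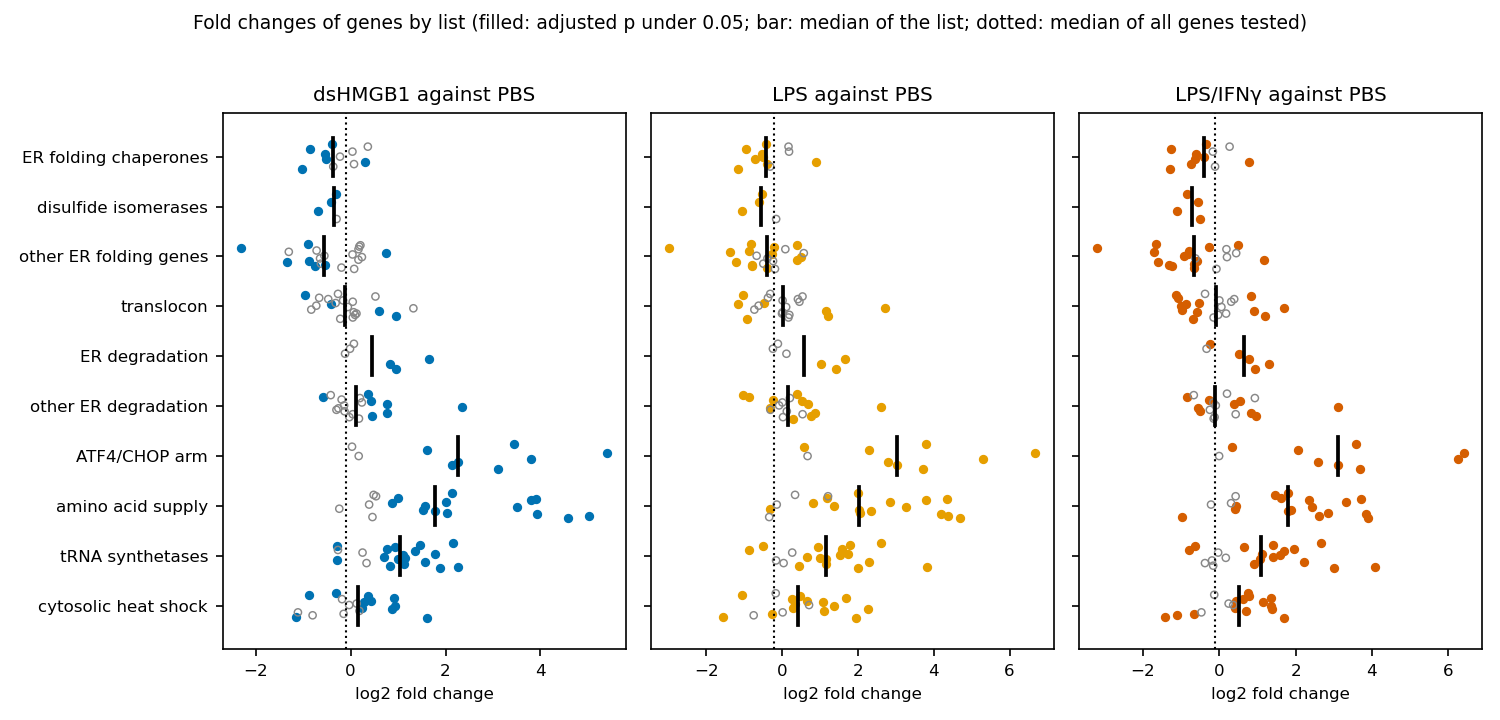
Each point is 1 gene, with its DESeq2 log2 fold change over PBS on the horizontal axis, in 10 lists (rows) and 3 panels for dsHMGB1, LPS and LPS/IFNγ. Filled points have an edgeR adjusted p under 0.05, thick bars are list medians and the dotted line is the median of all genes tested. The ATF4/CHOP arm, amino acid supply and tRNA synthetase rows lie to the right of that line, with medians between 1.05 and 3.11, and the ER folding chaperone and isomerase rows to its left.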

How the data were processed

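Total RNA of cultured BMDMs was made into stranded mRNA libraries, 3 for each of 5 conditions. The table the authors deposited holds raw read counts for 51763 genes; their processing notes name CASAVA, STAR, DESeq2 and build GRCm38, while a counting program, its annotation or its strand setting was not given in the sources used here. All 15 columns matched a sample and 0 columns had none. Of the gene IDs, 51661 were found in GENCODE M21, which gave symbols, exon lengths and overlaps.

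Counts were filtered with filterByExpr (16919 genes kept), scaled by TMM and tested in 1 fit of all 15 libraries with edgeR 4.0.16 (quasi-likelihood F test) in R 4.3.3, with Benjamini-Hochberg adjustment over all genes tested and a threshold of 0.05. DESeq2 1.42.0 gave the normalized counts and the log2 fold changes, not shrunken, with their SE. Tested on simulated counts for LPS against PBS (16211 genes), the fit recovered 198 of 200 changed genes. The simulated libraries all had the same spread, with no outlying library such as PBS replicate 3 and far fewer changed genes than were called here. The recovery therefore checks the code and says nothing about error rates in these data.

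The 34 genes, the gene lists and the branches were chosen with earlier results of these data known. Values in every library were printed for 15 chosen genes and for the 2 genes of each branch with the widest range between condition means; of every other list, the 2 largest rises and 2 largest falls in LPS against PBS among called genes with a mean normalized count of at least 100. Replicate numbers did not pair the samples: deviations of same-numbered libraries correlated at -0.38 to 0.37 over 30 pairs, 1 of them above 0.1. No replicate pair was alike within sampling noise. Alternatives were the DESeq2 Wald test, RLE scaling, total counts alone, no filter, a minimum of 1 CPM in 3 libraries, protein-coding genes only, only the 2 conditions compared, a replicate block and leaving out each library. Promoter sequences were those of RefSeq on GRCm38.p6. Of the 31 windows, 26 started in a GENCODE transcript of the gene; protein sequences were not analysed here.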

Additional observations from a re-analysis of the deposited data

How the results depend on the processing

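Over 8 comparisons and all alternatives, 5873 of 6256 results for single genes kept their direction and side of the threshold or stayed uncalled, 185 lost a call, 174 gained one and 24 turned. Counts of genes higher and lower that moved by over 1.5 times follow. With total counts alone, lower calls were 17 in dsHMGB1, 19 in LPS and 15 in dsHMGB1 against frHMGB1, higher calls were 8 in LPS/IFNγ against PBS and 1 in LPS/IFNγ against LPS, and the splits were 12 and 4 in dsHMGB1 against LPS and 14 and 2 against LPS/IFNγ. With only the 2 conditions fitted, lower calls were 2, 5 and 6 in dsHMGB1, LPS and LPS/IFNγ against PBS, higher calls 0 in frHMGB1 against PBS and 11 in dsHMGB1 against LPS, and the other counts 13 and 12 (dsHMGB1 against LPS/IFNγ), 6 and 16 (LPS/IFNγ against LPS) and 13 lower (dsHMGB1 against frHMGB1). The shares of all genes called in these fits were, in that order, 29.9%, 49.2%, 48.6%, 1.27%, 47.0%, 55.4%, 61.1% and 69.1%. Without a filter there were 0 higher calls in frHMGB1 against PBS and in dsHMGB1 against LPS, and 4 lower in dsHMGB1 against frHMGB1, where 3.87%, 13.3% and 28.1% of all genes were called. RLE scaling gave 2 higher in dsHMGB1 against LPS, and the DESeq2 Wald test 5 lower in LPS/IFNγ against LPS, where 26.7% and 31.0% of all genes were called.

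Leaving out 1 library at a time gave 1 to 5 higher and 0 to 1 lower in frHMGB1, 10 to 15 and 7 to 13 in dsHMGB1, 12 to 16 and 9 to 15 in LPS, and 13 to 15 and 12 to 14 in LPS/IFNγ against PBS. The ranges were 0 to 11 and 5 to 13 in dsHMGB1 against LPS, 4 to 15 and 6 to 13 against LPS/IFNγ, 10 to 16 and 6 to 14 against frHMGB1, and 0 to 4 and 1 to 16 in LPS/IFNγ against LPS. PBS replicate 3 gave the upper end of all of these but the lower calls in frHMGB1, where leaving out PBS replicate 1 also gave 1. The share of all genes called moved too. It ran from 4.81% to 17.5% in frHMGB1, 38.8% to 58.9% in dsHMGB1, 54.9% to 71.2% in LPS and 53.1% to 67.7% in LPS/IFNγ against PBS. For dsHMGB1 it was 19.6% to 48.8% against LPS, 26.3% to 53.3% against LPS/IFNγ and 43.0% to 68.7% against frHMGB1. For LPS/IFNγ against LPS it was 19.1% to 49.4%.

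Single genes turned, with edgeR adjusted p as follows. With total counts alone these were, in dsHMGB1 against PBS, *Hspa5* 0.732, *Dnajb11* 0.0361, *Derl1* 0.0167 and *Atf3* 0.0260, in LPS *Dnajb11* 0.00138, *Edem1* 0.00302, *Xbp1* 0.0158 and *Atf3* 0.352, in LPS/IFNγ *Edem1* 0.303, *Xbp1* 0.00916 and *Atf3* 0.0149, in dsHMGB1 against LPS/IFNγ *Calr* 0.0110 and *Atf3* 0.909, and against frHMGB1 *Derl1* 0.0146. Without PBS replicate 3, which gave the lowest p of each range over the libraries left out, they were *Pdia6* (0.0171 to 0.876), *Ddit3* (0.0217 to 0.776) and *Nupr1* (0.00332 to 0.899) in frHMGB1, *Manf* (0.0296 to 0.505) and *Derl2* (0.000538 to 0.992) in dsHMGB1, *Canx* (0.0474 to 0.732), *Manf* (0.0131 to 0.495), *Pdia6* (0.0315 to 0.548) and *Ern1* (0.00902 to 0.898) in LPS, and *Manf* (0.000179 to 0.800) in LPS/IFNγ. The cause was not tested. The numbers did not pair the samples, and the replicate block changed the calls of 3 genes, all in dsHMGB1 against LPS: *Derl1* (adjusted p = 0.0508), *Eif2ak3* (0.0679) and *Pdia4*.

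The samples are technical replicates of 1 pool of cells at 1 time, so differences between animals were not measured. Gene-level counts show neither splicing of *Xbp1* nor protein activity. The *Ddit3* entry has 105 exon bases in GENCODE M21, and which bases were counted for it is not known. At 40934540 or more counted reads a library, counting error is small, except for *Chac1*, beside the spread between PBS libraries. With PBS replicate 3 included, the coefficient of variation in PBS had a median of 27.8% over the 34 genes, beside 2.24% to 6.02% in the stimulated conditions. *Chac1* had only 18.7 to 58.0 normalized counts in PBS, so its fold changes over PBS rest on low counts.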
